A study of Mus musculus with 33 samples.

Results

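The genes that build cholesterol and fatty acids were followed through birth in mouse lung and liver. They were taken as every probe set annotated to 33 listed symbols or their older names, and 28 of the 33 genes were on the array, with 39 of the 12422 probe sets that are not controls (28 of 8252 named genes). Srebf2, Stard4, Acss2, Acaca and Fads2 had no probe set under their names and were not analysed here. The RNA of 33 tissue samples was hybridised, 1 sample per array, in 11 groups of 3. Lungs of mice born into 10% oxygen were taken at 2 h and 6 h after birth, and lungs of fetuses on day 21 of gestation (F21) were taken after the dam had spent 12 h in 10% oxygen. Lungs from room air (21% oxygen) were taken at F21 and at 2 h, 6 h, 12 h and 24 h after birth. Livers came from room air at F21, 2 h and 6 h. The strain was written as C57/BL on the 10% oxygen lungs, the livers and 1 lung array at 24 h, as BL/57 on the other newborn room air lungs and as C57/Black on the F21 room air lungs (1 of these had no strain), and the methods name C57B/6J dams. No source used here says whether the 3 animals of a group came from separate litters, so p-values measure only the spread between these samples.

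Cholesterol is built from acetyl-CoA through mevalonate and the isoprenoid diphosphates to squalene, which is closed into lanosterol and trimmed to cholesterol in the endoplasmic reticulum. Fatty acids are built from the same acetyl-CoA by fatty acid synthase and are then lengthened and desaturated. The sterol regulatory element-binding proteins switch on the genes of both routes when membrane sterol is low, and Insig proteins hold them back. The liver is the main site of both routes in the adult, and the alveolar type II cells of the lung make the lipid of surfactant around birth.

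The promoters of Hmgcs1, Idi1, Srebf1 and Elovl5 are shown because the results below turn on these genes. Each window runs from 250 bases before to 50 bases after a RefSeq start site (assembly GRCm38.p6), read 5′ to 3′ on the strand of the gene. Capitals mark a sterol response element (searched as TCACNCCAC) or an NF-Y box (searched as CCAAT), on either strand, so that a CCAAT on the other strand reads ATTGG.
Hmgcs1, chr13:119690101-119690400 (+ strand): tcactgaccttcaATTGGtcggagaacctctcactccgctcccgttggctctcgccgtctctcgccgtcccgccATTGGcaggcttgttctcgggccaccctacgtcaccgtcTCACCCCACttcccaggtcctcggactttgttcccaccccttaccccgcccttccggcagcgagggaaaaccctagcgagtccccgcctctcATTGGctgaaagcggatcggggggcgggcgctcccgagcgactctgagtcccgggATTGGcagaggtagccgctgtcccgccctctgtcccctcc
Idi1, chr13:8885356-8885655 (+ strand): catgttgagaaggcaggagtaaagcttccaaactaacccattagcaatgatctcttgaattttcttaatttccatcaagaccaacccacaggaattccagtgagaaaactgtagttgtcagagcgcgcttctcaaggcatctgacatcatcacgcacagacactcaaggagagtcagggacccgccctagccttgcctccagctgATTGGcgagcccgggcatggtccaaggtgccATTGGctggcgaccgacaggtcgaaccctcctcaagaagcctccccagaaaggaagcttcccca
Srebf1, chr11:60210422-60210721 (- strand): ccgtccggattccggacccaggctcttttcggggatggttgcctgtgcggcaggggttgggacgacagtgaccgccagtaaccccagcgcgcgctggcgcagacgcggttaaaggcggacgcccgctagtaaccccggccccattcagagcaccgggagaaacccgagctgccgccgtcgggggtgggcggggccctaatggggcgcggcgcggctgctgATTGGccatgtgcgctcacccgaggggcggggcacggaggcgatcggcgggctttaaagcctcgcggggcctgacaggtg
Elovl5, chr9:77917115-77917414 (+ strand): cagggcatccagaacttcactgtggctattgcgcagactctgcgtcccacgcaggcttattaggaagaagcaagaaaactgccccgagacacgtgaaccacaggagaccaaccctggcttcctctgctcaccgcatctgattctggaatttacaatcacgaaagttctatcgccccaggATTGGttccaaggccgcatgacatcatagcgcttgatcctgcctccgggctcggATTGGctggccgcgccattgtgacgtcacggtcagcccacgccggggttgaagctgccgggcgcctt

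Promoter entries were matched for 26 of the 33 listed genes, in 33 windows. Of these 33 windows only that of Hmgcs1 held TCACNCCAC, on the gene's own strand, a motif found in 1.242% of 32851 mouse promoter windows of this length. CCAAT was in 24 of the 33 windows, for 23 of the 26 genes, against 37.41% of all promoter windows. Hmgcs1 had 4 such boxes, Idi1 and Elovl5 had 2 each, and Srebf1 had 1 in the window shown and 1 in another of its 3 windows. The Sp1 box GGGCGG, not marked here, was in 24 of the 33 windows, against 35.66% of all. The E-box CACGTG was in 5 windows, Elovl5 among them, against 7.15% of all. A match describes the letters in a window and no binding was measured.

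Array signals were those of Affymetrix MAS5, scaled by the authors to a target of 100, and a signal belongs to its own probe set, so that levels are compared between samples and not between genes. Tests used log2 signals (signals under 10 set to 10) in limma over all probe sets that were in the top 40% of signals on at least 3 arrays, and an adjusted p is the Benjamini-Hochberg value over all of these. A value after ± is a standard error beside a log2 change and an SD beside a mean signal (n = 3). In bulk tissue, fewer cells of a type and less RNA per cell cannot be told apart. Organ markers separated lung and liver as labelled. The 7 hepatocyte genes summed to 124254 to 135514 in F21 livers and to between 72.6 and 298.7 in room air lungs, and 6 alveolar type II genes summed to 51554 to 65229 in F21 room air lungs and 450.3 to 605 in F21 livers. Array 2 of the F21 lungs at 10% oxygen had a hepatocyte sum of 3089.8, against 144.9 and 257.2 on the other arrays of its group. The 10% oxygen lungs had Gapdh 3′:5′ signal ratios of 1.21 to 9.40, against 0.734 to 1.15 in room air lungs and 1.30 to 1.86 in livers. Their arrays correlated with those of their own group at r = 0.749 to 0.825, against 0.896 to 0.950 in room air lungs and 0.867 to 0.895 in livers.

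Before birth, the cholesterol genes were lower in lung than in liver, while the genes that desaturate and lengthen fatty acids were divided. The F21 lungs and livers also differed in how the strain was written and in the Gapdh ratio (0.824 to 1.03 against 1.34 to 1.86). These cannot be told apart from organ. Of the 25 genes tested, 5 were higher and 13 were lower in F21 lungs than in F21 livers, with a median log2 difference of -1.05, beside 0.14 over all probe sets tested. By probe sets, 22 of 31 passed the test, where 28% of all 7640 probe sets did. Of the 8 genes from squalene onward that were tested, 7 were lower, and of the 5 genes of the mevalonate and isoprenoid steps 3 were lower and none was higher. Of the 6 desaturases and elongases, Scd1, Scd2, Elovl1 and Elovl5 were higher in lung, and Fads1 and Elovl6 were lower. Cyp51, Msmo1, Dhcr7 and Elovl6 passed the filter on signals in the liver arrays but not in the lung arrays, and Me1 in the lung arrays alone. Each was thus tested here through the organ where it was higher, and its call describes that difference without being separate support for it.

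Hmgcs1 makes the HMG-CoA from which mevalonate is formed. It gave signals of 219, 173 and 127 in F21 lungs, against 311, 467 and 376 in F21 livers (log2 difference -1.17 ± 0.36, adjusted p = 0.015). The isomerase Idi1, which sets the balance of the isoprenoid building blocks, gave 107, 92.5 and 92.2 in F21 lungs, against 419, 737 and 517 in F21 livers (log2 difference -2.48 ± 0.57, adjusted p = 0.00108). Farnesyl diphosphate synthase, Fdps, gave 475, 403 and 501 in F21 lungs, against 2241, 3087 and 1949 in F21 livers, and its lung signals were 0.192 times those of liver (log2 difference -2.38 ± 0.40, adjusted p = 2.00e-05). A second Fdps probe set, from a sequence family set, gave a log2 difference of -2.43 ± 0.52 (adjusted p = 4.89e-04). No lung array reached the lowest liver array for these genes. Mvd, the decarboxylase, had a log2 difference of -1.92 that did not pass (95% interval -3.55 to -0.28, adjusted p = 0.0745), and Mvk, mevalonate kinase, had 0.27 (adjusted p = 0.555).

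Squalene synthase, Fdft1, gave 112, 105 and 64.2 in F21 lungs, against 393, 674 and 390.2 in F21 livers (log2 difference -2.37 ± 0.48, adjusted p = 2.62e-04). Squalene epoxidase, Sqle, gave 67.6, 121 and 179 in F21 lungs, against 329, 425 and 291 in F21 livers (log2 difference -1.60 ± 0.47, adjusted p = 0.0102). Lanosterol synthase, Lss, gave 100.5, 79.2 and 29.4 in F21 lungs, against 200.1, 311 and 177 in F21 livers (log2 difference -1.85 ± 0.69, adjusted p = 0.0448). The groups did not overlap for any of the 3 genes. Of the enzymes that trim lanosterol, the demethylase Cyp51 gave 31.1, 32.4 and 43.0 in F21 lungs, against 104, 146 and 61.8 in F21 livers (log2 difference -1.48 ± 0.55, adjusted p = 0.0412). The methylsterol oxidase Msmo1 gave 40.9, 22.2 and 35.3 in F21 lungs, against 109, 153 and 108 in F21 livers (log2 difference -1.93, adjusted p = 0.0184). The sterol isomerase Ebp gave 31.4, 44.3 and 43.5 in F21 lungs, against 162, 247 and 183 in F21 livers (log2 difference -2.31, adjusted p = 0.00169). Every liver array was above every lung array for these 3 too. Dhcr7, the reductase that completes cholesterol, gave 9.3, 40.2 and 18.6 in F21 lungs, against 98.0, 218 and 160.0 in F21 livers (log2 difference -2.95, adjusted p = 0.00343), with 1 of the lung signals under the floor of 10. Nsdhl, a dehydrogenase of the demethylation steps, was at -0.68 and did not pass (adjusted p = 0.279).

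Srebf1, the transcription factor best known for switching on fatty acid synthesis in liver, was lower in lung, with 408, 471 and 282 in F21 lungs, against 720.1, 658 and 806 in F21 livers (log2 difference -0.94 ± 0.31, adjusted p = 0.0231). The stearoyl-CoA desaturase Scd1 was higher in lung, with 1555, 1596 and 854 in F21 lungs, against 179, 278 and 280.5 in F21 livers (log2 difference 2.42 ± 0.54, adjusted p = 9.07e-04), and so was its paralog Scd2, with 2067, 2356 and 2665 in F21 lungs, against 782, 1131 and 932 in F21 livers (log2 difference 1.33 ± 0.48, adjusted p = 0.0352). Their second probe sets passed in the same direction (Scd1 2.31, Scd2 1.16). Cross-hybridisation between these close paralogs was not tested. Malic enzyme, Me1, a source of NADPH for lipid synthesis, gave 81.6, 63.3 and 112 in F21 lungs, against 38.9, 11.8 and 25.3 in F21 livers (log2 difference 1.88, adjusted p = 0.021). Elovl1, which lengthens long saturated chains, gave 245, 500.4 and 197 in F21 lungs, against 106, 75.8 and 70.9 in F21 livers (log2 difference 1.80, adjusted p = 0.00102), and Elovl5, which lengthens polyunsaturated chains, gave 441, 469.6 and 714 in F21 lungs, against 135, 249.8 and 161 in F21 livers (log2 difference 1.59, adjusted p = 1.12e-04). Elovl6, which lengthens palmitate, had the lowest log2 difference of the members, with 10.0, 5.3 and 31.0 in F21 lungs, against 196, 156 and 203 in F21 livers (log2 difference -3.65, adjusted p = 1.84e-04). With 1 lung signal under the floor of 10, its size depends on the floor. Over all alternatives, the fits without 1 array among them, the log2 difference ran from -4.20 to -2.75. The desaturase Fads1 gave 143, 187 and 136 in F21 lungs, against 271, 317 and 371 in F21 livers (log2 difference -1.05, adjusted p = 9.96e-04). Fatty acid synthase itself, Fasn, gave 532, 683 and 444 in F21 lungs, against 212, 318 and 297 in F21 livers and did not pass (log2 difference 1.0, 95% interval -0.07 to 2.08, adjusted p = 0.161), nor did Acly, Thrsp or Gpam. Of the 22 calls, 12 stood in every fit without 1 array, and the other 10 are given next.

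**Figure D1:**
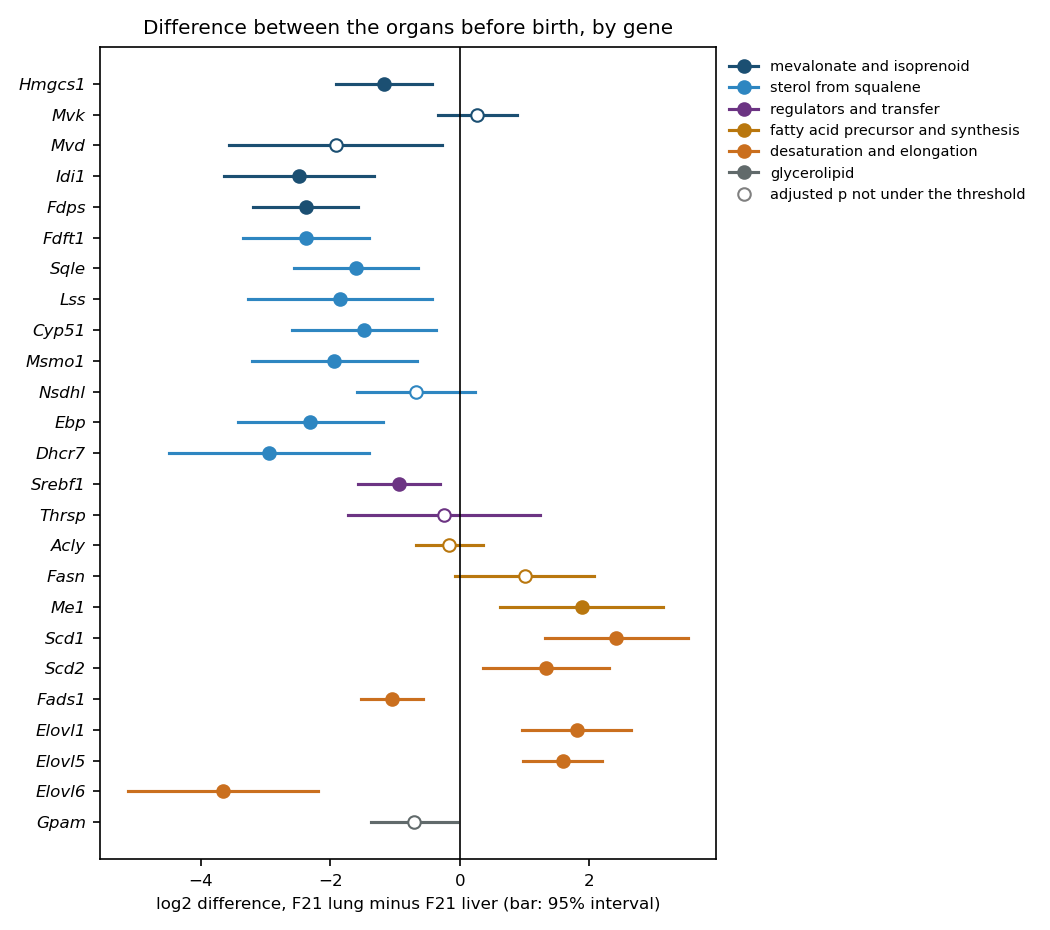
Each point is the log2 difference of 1 gene between F21 lungs and F21 livers of room air (horizontal axis, 3 arrays per organ, brightest probe set of the gene), with its 95% interval, coloured by role, and open where the adjusted p was not under 0.05. The genes from squalene to cholesterol all lie left of 0, Scd1 at 2.42 and Elovl1 at 1.80 lie to the right, and Elovl6 at -3.65 lies farthest left.

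For Cyp51, the adjusted p was above 0.05 without room air lung F21 array 1 (0.109), room air lung F21 array 2 (0.1), room air lung F21 array 3 (0.0542), liver F21 array 1 (0.0952) or liver F21 array 2 (0.171). For Lss, the adjusted p was above 0.05 without room air lung F21 array 2 (0.0604), room air lung F21 array 3 (0.223), liver F21 array 1 (0.0776), liver F21 array 2 (0.147) or liver F21 array 3 (0.0616). For Scd2, the adjusted p was above 0.05 without room air lung F21 array 1 (0.0562), room air lung F21 array 2 (0.0763), room air lung F21 array 3 (0.0981), liver F21 array 1 (0.11) or liver F21 array 3 (0.0748), and by its family probe set the adjusted p was above 0.05 without room air lung F21 array 3 (0.0549) or liver F21 array 3 (0.0601). Each of these 3 genes lost its call in 5 of 6 such fits by its brighter probe set. For Srebf1, the adjusted p was above 0.05 without room air lung F21 array 3 (0.13), liver F21 array 1 (0.053) or liver F21 array 3 (0.0763). For Sqle, the adjusted p was above 0.05 without room air lung F21 array 1 (0.086). For Hmgcs1, the adjusted p was above 0.05 without room air lung F21 array 3 (0.0846) or liver F21 array 2 (0.0732). For Msmo1, the adjusted p was above 0.05 without room air lung F21 array 2 (0.0832) or liver F21 array 2 (0.0693). For Me1, the adjusted p was above 0.05 without room air lung F21 array 3 (0.0837) or liver F21 array 2 (0.135), and for the second Scd1 probe set, the adjusted p was above 0.05 without room air lung F21 array 2 (0.0696) or liver F21 array 1 (0.0639). The brighter Scd1 probe set, Idi1, Fdps, Fdft1, Ebp, Dhcr7, Fads1, Elovl1, Elovl5 and Elovl6 passed in every fit without 1 array.

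After birth the liver signals of most of these genes were lower. At 6 h, 22 of the 24 genes tested were below their F21 level and the median log2 change was -1.02, beside 0.00 over all probe sets tested. Hmgcs1, Idi1, Srebf1 and Elovl6 fell and Elovl5 rose, so that 5 of 30 probe sets passed, where 1.84% of all 5693 did. At 2 h, 19 of 24 genes were below F21 with a median of -0.92, beside 0.00 over all, and Idi1 fell and Elovl5 rose, so that 2 of 30 probe sets passed, where 0.913% of all did. For 12 of the 24 genes all 6 h arrays were below all F21 arrays, where 10% of all probe sets were. Both changes are taken against the same F21 arrays and are not independent of each other. The filter on signals takes in any arrays of the fit, so a dim gene such as Elovl6 or Dhcr7 can be tested through its F21 arrays. A fall of such a gene is then no separate support, and the counts below F21 may include such genes. Without liver F21 array 2, 28 member probe sets were tested in place of 30.

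Hmgcs1 gave 311, 467 and 376 at F21, 335, 188 and 116 at 2 h and 111, 118 and 151 at 6 h. The 6 h arrays were all below the F21 arrays (log2 change -1.60 ± 0.32, adjusted p = 0.0249), while array 1 at 2 h was within the F21 range (log2 change -0.97, adjusted p = 0.224). Idi1 gave 419, 737 and 517 at F21, 272, 86.4 and 64.3 at 2 h and 97.9, 46.2 and 89.5 at 6 h, and no newborn array reached the F21 range. Its log2 change was -2.24 ± 0.46 at 2 h (adjusted p = 0.039) and -2.87 ± 0.46 at 6 h (adjusted p = 0.00529), which is 0.136 of the F21 signal. Fdps gave 2241, 3087 and 1949 at F21, 3086, 1099.6 and 1535 at 2 h and 2244, 618 and 1838 at 6 h, with the newborn arrays spread across and below the F21 range, and passed at neither time (log2 change -0.80 at 6 h, 95% interval -1.73 to 0.12).

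The genes from squalene onward were below F21 as well, 8 of 8 tested at 6 h with a median log2 change of -1.08, but none passed the test. Fdft1 gave 393, 674 and 390.2 at F21, 417, 156 and 166 at 2 h and 219, 163 and 278 at 6 h. Sqle gave 329, 425 and 291 at F21, 294, 94.0 and 99.8 at 2 h and 172, 79.9 and 115 at 6 h. Lss gave 200.1, 311 and 177 at F21, 232, 54.0 and 63.4 at 2 h and 146, 65.2 and 148 at 6 h. In these 3 genes array 1 at 2 h lay at or above the lowest F21 array and the other 2 h arrays lay far below it. Their log2 changes at 6 h were -1.13 for Fdft1 (adjusted p = 0.146), -1.56 for Sqle (adjusted p = 0.0739) and -0.99 for Lss (adjusted p = 0.406). Msmo1 gave 109, 153 and 108 at F21, 105, 34.6 and 38.1 at 2 h and 62.2, 17.5 and 86.9 at 6 h, and Cyp51 gave 104, 146 and 61.8 at F21, 72.9, 60.9 and 29.3 at 2 h and 77.1, 33.6 and 41.2 at 6 h. Dhcr7 gave 98.0, 218 and 160.0 at F21, 134, 61.0 and 85.2 at 2 h and 88.9, 4.1 and 91.2 at 6 h, with array 2 at 6 h under the floor. Ebp gave 162, 247 and 183 at F21, 207, 178 and 266 at 2 h and 175, 172 and 198 at 6 h, and its 3 groups overlapped.

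Srebf1 fell in liver, with 720.1, 658 and 806 at F21, 511, 211 and 204 at 2 h and 187, 143 and 205 at 6 h. The groups of F21 and 6 h were far apart (log2 change -2.04 ± 0.30, adjusted p = 0.00289), and at 2 h all arrays were below F21 but spread widely (log2 change -1.37 ± 0.30, adjusted p = 0.0503). Elovl6 gave 196, 156 and 203 at F21, 132, 33.9 and 35.8 at 2 h and 10.1, 40 and 42.1 at 6 h, again with all 6 h arrays below all F21 arrays (log2 change -2.83 ± 0.63, adjusted p = 0.0412), and its dimmer probe set gave 106, 58.8 and 100.5 at F21, 133, 5.8 and 36.7 at 2 h and 21.4, 37.7 and 60.5 at 6 h (log2 change at 6 h -1.23, adjusted p = 0.57). Fasn gave 212, 318 and 297 at F21, 372, 98.8 and 40 at 2 h and 24.6, 123 and 136 at 6 h, with every 6 h array below F21, and did not pass (log2 change -1.87 ± 0.72, adjusted p = 0.259). Scd2 gave 782, 1131 and 932 at F21, 763, 107 and 192 at 2 h and 340.2, 103 and 306 at 6 h (log2 change at 6 h -2.09, adjusted p = 0.102). Scd1 gave 179, 278 and 280.5 at F21, 484, 228 and 331 at 2 h and 353, 105 and 366 at 6 h with overlapping groups (log2 change at 6 h -0.02, adjusted p = 0.992).

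Elovl5 went the other way. It gave 135, 249.8 and 161 at F21, 472, 561 and 618 at 2 h and 834, 454 and 621 at 6 h, so that every newborn array was above every F21 array. The signal was 3.11 times that of F21 at 2 h (log2 change 1.64 ± 0.25, adjusted p = 0.00934) and 3.51 times at 6 h (log2 change 1.81 ± 0.25, adjusted p = 0.00223). The desaturase Fads1 gave 271, 317 and 371 at F21, 400.0, 295 and 325 at 2 h and 488, 277 and 288 at 6 h and did not pass at either time (log2 change at 6 h 0.10, adjusted p = 0.899). The fetal liver holds many red cell precursors. The 5 erythroid genes had sums of 44474 to 54326 in F21 livers, 49012 to 53307 in 2 h livers and 47591 to 54742 in 6 h livers, while the hepatocyte sums were 124254 to 135514, 107785 to 136558 and 110860.0 to 127246 at the same times. Alpha-globin, Hba-a1, made up most of the erythroid sum, and other markers in it had larger changes. The red cell anion exchanger Slc4a1 averaged 2489 at F21, 4644 at 2 h and 4617 at 6 h (log2 change 0.88 and 0.90, adjusted p = 0.054 and 0.0348), and Alas2, of heme synthesis, 1404, 2090.0 and 2221 at the same times (log2 change 0.57 and 0.66, adjusted p = 0.0526 and 0.0179). Of the 5 erythroid genes 2 passed at 6 h and none at 2 h, with a median log2 change of 0.50 at 2 h and 0.60 at 6 h. Of the 7 hepatocyte genes none passed, with medians of -0.12 at 2 h and -0.28 at 6 h, and Ttr, the lowest of them, was at -1.14 at 6 h (adjusted p = 0.253). Their part in the liver results was not tested.

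**Figure D2:**
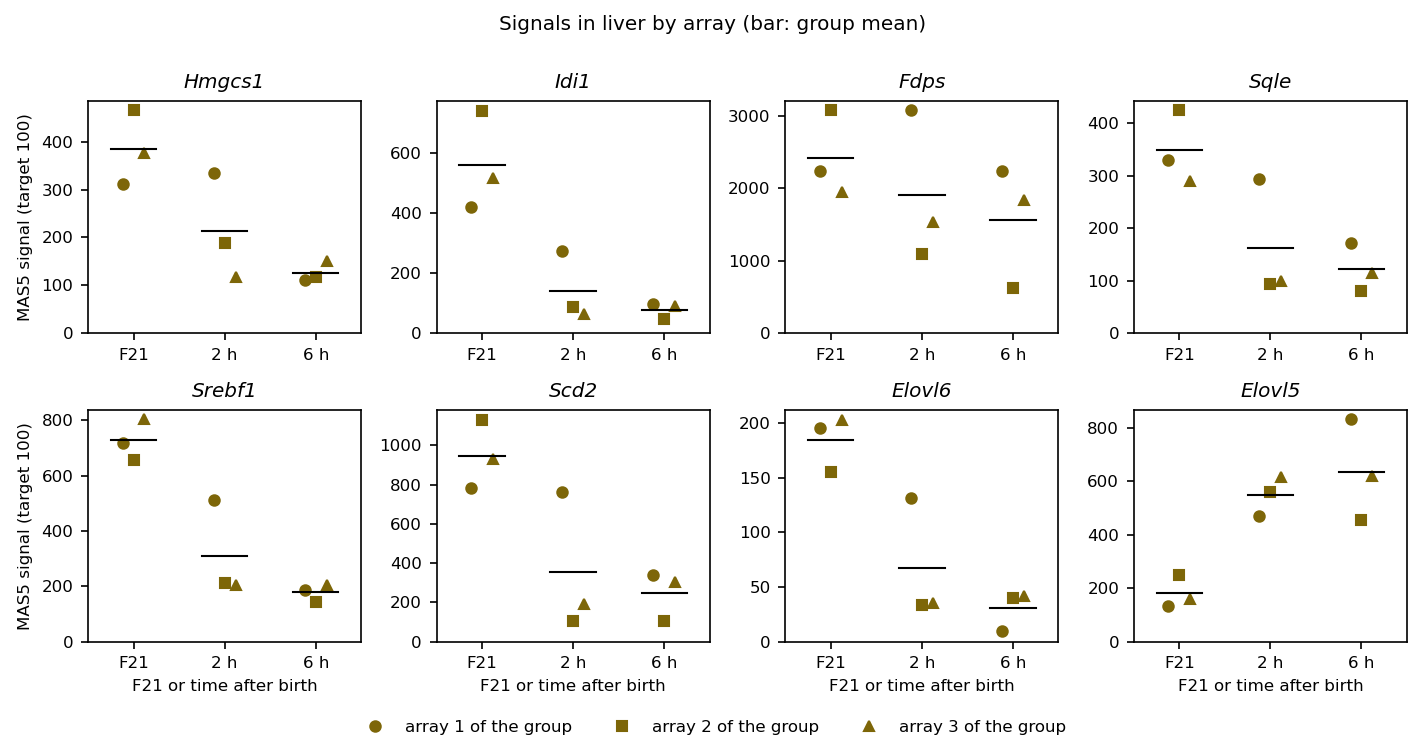
MAS5 signal (vertical axis, starting at 0) of 8 genes in the 9 liver arrays at F21, 2 h and 6 h, with 1 point per array, a shape for each array number and a bar at the group mean. Idi1 averaged 558, 141 and 77.9, Srebf1 averaged 728, 309 and 178, and Elovl5 averaged 182, 550.1 and 636 in that order of times, and array 1 was the highest of the 2 h arrays in all but Elovl5.

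Array 1 of the 2 h livers stood apart in these genes. Its signals were the highest of the group in 12 of 13 cholesterol genes tested and 21 of 24 of all the genes tested here, where it was highest in 36.0% of all probe sets tested. The median over the 13 cholesterol genes, relative to the F21 mean, was -0.18, -1.31 and -1.67 in 2 h arrays 1, 2 and 3. Without array 1, 9 of 28 probe sets passed at 2 h in place of 2 of 30, 8 of them lower, where 2.32% of all 5555 probe sets passed. Array 1 was picked by these same genes, so leaving it out lowers most of their changes by construction. The fit without it describes the other arrays and gives no separate support for a fall. In that fit Srebf1 changed by -1.81 ± 0.20 (adjusted p = 7.34e-04), Idi1 by -2.86 ± 0.35 (adjusted p = 0.00114), Sqle by -1.83 ± 0.31 (adjusted p = 0.00798), Fdft1 by -1.54 ± 0.28 (adjusted p = 0.0124), Lss by -1.93 ± 0.38 (adjusted p = 0.02), Hmgcs1 by -1.36 ± 0.27 (adjusted p = 0.0206) and Scd2 by -2.71 ± 0.43 (adjusted p = 0.00626) on the log2 scale, and Elovl5 by 1.74 ± 0.28 (adjusted p = 0.00681). With 2 h array 2 or 3 or F21 array 3 left out instead, no member passed at 2 h. For Idi1 with all arrays, the adjusted p was above 0.05 without liver 2 h array 2 (0.176), liver 2 h array 3 (0.169), liver F21 array 1 (0.0718), liver F21 array 2 (0.134) or liver F21 array 3 (0.114), and for Elovl5 the adjusted p was above 0.05 without liver 2 h array 2 (0.0503), liver 2 h array 3 (0.057) or liver F21 array 3 (0.0549). At 6 h the calls of Idi1, Srebf1 and Elovl5 stood in all 6 fits without 1 array, but with no filter on dim probe sets they did not pass (adjusted p = 0.0986 for Idi1, 0.0593 for Srebf1 and 0.0515 for Elovl5), nor after adjustment of the methods' t-test. The other member calls in liver after birth were lost in the same settings. For Hmgcs1, the adjusted p was above 0.05 without liver 6 h array 1 (0.0851), liver 6 h array 2 (0.0699), liver F21 array 2 (0.106) or liver F21 array 3 (0.0894). For Elovl6, the adjusted p was above 0.05 without liver 6 h array 1 (0.0931), liver 6 h array 3 (0.0572), liver F21 array 1 (0.152), liver F21 array 2 (0.118) or liver F21 array 3 (0.162).

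Few members passed the test in lungs of mice born into room air. In these comparisons the strain was written differently at F21 and after birth, which cannot be told apart from birth. Fdps fell at 2 h and Scd2 fell at 6 h and 12 h, and at 24 h no member passed the test. The median log2 change over the 20 genes tested was -0.30 at 2 h, -0.34 at 6 h, -0.07 at 12 h and -0.12 at 24 h, beside 0.02, -0.04, -0.02 and -0.04 over all probe sets. Of 24 member probe sets, 2 passed at 2 h, 1 at 6 h, 1 at 12 h and 0 at 24 h, where 4.24%, 1.02%, 1.34% and 0.577% of all 6931 did, at most 1 probe set more than those shares give. At 24 h, 3 of the 24 had an unadjusted limma p under 0.05, and the methods' t-test passed none.

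Fdps gave 475, 403 and 501 at F21, 169, 199 and 158 at 2 h, 253, 319 and 297 at 6 h, 290.4, 886 and 576 at 12 h and 264, 552 and 686 at 24 h. All 2 h arrays were below all F21 arrays, at 0.381 of the F21 signal (log2 change -1.39 ± 0.33, adjusted p = 0.0184), the 6 h arrays lay between (log2 change -0.67, adjusted p = 0.45), and the 12 h and 24 h arrays spread over and around the F21 range. The family probe set of Fdps did not pass at 2 h (log2 change -0.45, adjusted p = 0.692). For the first probe set, the adjusted p was above 0.05 without room air lung 2 h array 1 (0.0645), room air lung 2 h array 3 (0.0832), room air lung F21 array 1 (0.0584) or room air lung F21 array 3 (0.0798). Idi1 gave 107, 92.5 and 92.2 at F21, 67.6, 53.4 and 5.1 at 2 h, 43.8, 56.3 and 67.2 at 6 h, 134, 320.0 and 249.5 at 12 h and 44.7, 107 and 217 at 24 h, with all 2 h and 6 h arrays below F21 and all 12 h arrays above it, and passed at no time (log2 change -1.55 at 2 h, adjusted p = 0.125, and 1.18 at 12 h, adjusted p = 0.412). Hmgcs1 gave 219, 173 and 127 at F21, 158, 124 and 87.6 at 2 h, 96.5, 92.4 and 81.9 at 6 h, 94.8, 184 and 232 at 12 h and 83.8, 168 and 127 at 24 h and passed at no time (log2 change -0.91 at 6 h, adjusted p = 0.293).

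Scd2 gave 2067, 2356 and 2665 at F21, 2896, 2413 and 1276 at 2 h, 875, 783 and 551 at 6 h, 594, 642 and 709 at 12 h and 515, 775 and 1828 at 24 h. The 6 h and 12 h arrays were all below the F21 arrays, at 0.308 and 0.275 of the F21 signal (log2 change -1.70 ± 0.34, adjusted p = 0.0112 at 6 h and -1.86 ± 0.34, adjusted p = 0.0049 at 12 h), and array 3 at 24 h was back near the F21 range. Its family probe set gave 474, 514 and 629.6 at F21, 1170.1, 1121 and 701 at 2 h, 309.5, 289 and 254 at 6 h, 283, 336 and 264 at 12 h and 250.3, 455 and 515 at 24 h. There the 2 h arrays were above F21 (log2 change 0.86 ± 0.25, adjusted p = 0.0474), a call that the brighter probe set did not share (log2 change -0.18, adjusted p = 0.838) and that was lost in 5 of 6 fits without 1 array (highest adjusted p = 0.205), and at 6 h and 12 h, where its arrays were all below F21, it did not pass (log2 change -0.92 and -0.87, adjusted p = 0.0716 and 0.086). For the brighter probe set at 6 h, the adjusted p was above 0.05 without room air lung 6 h array 3 (0.064) or room air lung F21 array 3 (0.0633), and at 12 h in all 6 fits without 1 array the adjusted p was under 0.05 (highest 0.0315).

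Scd1 gave 1555, 1596 and 854 at F21, 2269.6, 2452 and 2334 at 2 h, 2192, 2182 and 903 at 6 h, 662, 497 and 309.6 at 12 h and 1571, 843 and 1030.5 at 24 h and passed at no time (log2 change -1.46 at 12 h, 95% interval -2.57 to -0.35, adjusted p = 0.231), although all 12 h arrays were below all F21 arrays. Srebf1 gave 408, 471 and 282 at F21, 824, 644 and 577 at 2 h, 381, 352 and 485 at 6 h, 453, 334 and 324 at 12 h and 406, 316 and 512 at 24 h. Its 2 h arrays were all above F21 (log2 change 0.83 ± 0.29, adjusted p = 0.117) and the later groups overlapped it. Elovl5 gave 441, 469.6 and 714 at F21, 812, 792 and 1033 at 2 h, 1177, 829 and 807 at 6 h, 1411, 755 and 781 at 12 h and 1433, 619 and 1304 at 24 h, with all 2 h, 6 h and 12 h arrays above all F21 arrays, and passed at no time (log2 change at 6 h 0.80, adjusted p = 0.243). Fasn gave 532, 683 and 444 at F21, 484, 391 and 359.5 at 2 h, 383, 490.5 and 219 at 6 h, 312, 436 and 394 at 12 h and 285, 339.7 and 320.4 at 24 h (log2 change at 24 h -0.79, adjusted p = 0.288), all 24 h arrays being below all F21 arrays. The 6 alveolar type II markers had summed signals of 51554 to 65229 in F21 lungs and 27119 to 33798 in 2 h lungs, then 66572 to 72238 in those of 6 h, 47624 to 52778 in those of 12 h and 52381 to 57470.5 in those of 24 h. The low sum at 2 h, where Fdps was lowest too, was mainly surfactant protein C, Sftpc, at 18767 at 2 h and 47453 at F21 (log2 change -1.33, adjusted p = 0.00428), the 1 of 5 such genes tested that passed. Of the 5, 2 were above and 3 below F21, with a median of -0.08 and Lyz2 at 1.36 (adjusted p = 0.0621). The part of these markers in the Fdps result was not tested. In these lungs Hba-a1 averaged 33604.5 at F21, 16243 at 2 h, 34015.5 at 6 h, 19765 at 12 h and 27571.1 at 24 h. A low signal at 2 h was thus not confined to type II markers. The spike-in control BioB gave 95, 75.9 and 110.7 on the 2 h arrays, against 327.2, 529.4 and 226.6 before birth. Whether bright signals as such were lower on the 2 h arrays was not tested. For fat that a dissection could carry, 6 adipocyte genes summed to between 252.3 and 580.2 in every lung array, and Adipoq was at 41.4 or under.

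In several groups the cholesterol genes were high or low together on 1 array. At 24 h, array 1 was the lowest of its group in 10 of 10 cholesterol genes tested in lung, where it was lowest in 39.0% of all probe sets, and the medians relative to F21 were -0.99, 0.22 and 0.41 in arrays 1, 2 and 3. At 12 h, array 1 was lowest in 8 of 10 (38.3% of all probe sets), with medians of -0.69, 0.36 and 0.39. In liver, F21 array 2 was highest in 12 of 13 (32.8% of all), with medians of -0.15, 0.44 and -0.24, and 6 h array 2 was lowest in 12 of 13 (34.7% of all), with medians of -0.76, -1.77 and -0.73. The fatty acid genes had medians over 9 genes of -0.37, -0.24 and -0.32 at 24 h in lung and -0.26, 0.21 and 0.13 at F21 in liver. These counts describe single samples. Without array 1 of 12 h or of 24 h, Scd2 alone passed at 12 h and no member passed at 24 h, as with all arrays. Of all probe sets 0.738% and 0.377% passed in those fits.

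**Figure D3:**
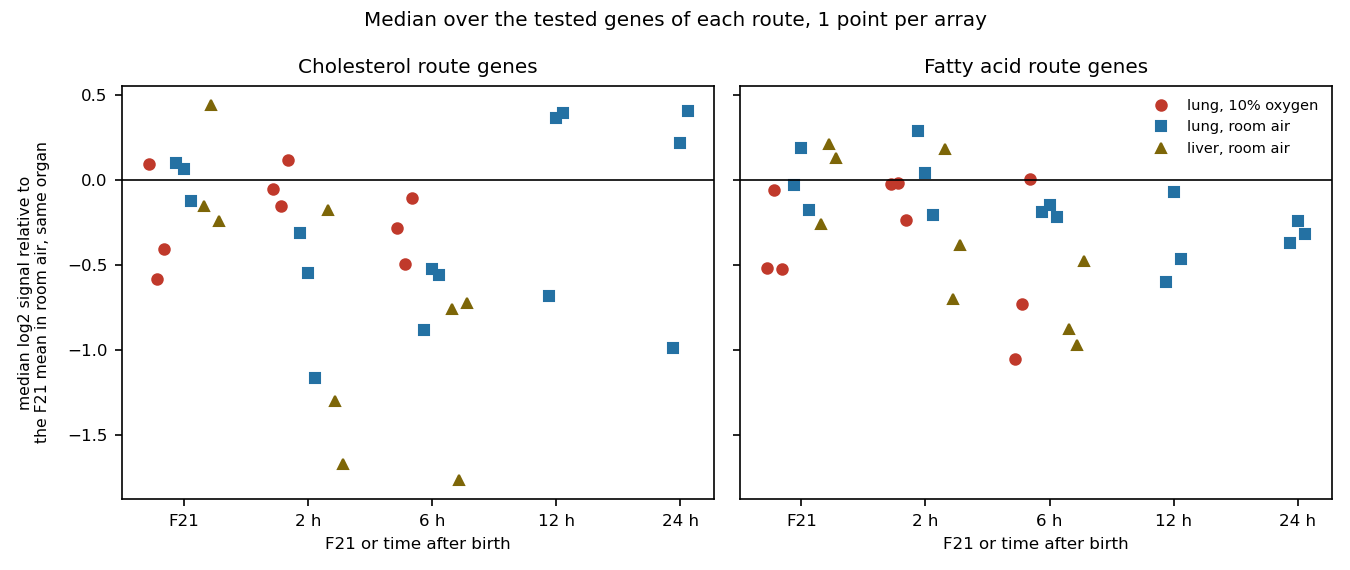
Each point is 1 array, plotted at the median log2 signal over the tested cholesterol genes (left, 10 in lung and 13 in liver) or fatty acid genes (right, 9 in each organ), relative to the F21 mean of room air in the same organ (vertical axis), by time (horizontal axis) and by series. The cholesterol medians spread within a group, as in lung at 24 h (-0.99, 0.22 and 0.41) and in liver at 2 h (-0.18, -1.31 and -1.67).

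At F21, the lungs of fetuses whose dams had breathed 10% oxygen had less Fdps, Scd1 and Elovl1 than those from room air. Of 24 member probe sets 6 passed and all 6 were lower, where 7.13% of all probe sets passed in either direction and 4.62% were lower. The median over the 20 genes was -0.28, beside -0.04 over all probe sets. Scd1 gave 113, 264 and 31.7 at 10% oxygen, against 1555, 1596 and 854 in room air, or 0.0764 of the room air signal (log2 difference -3.71 ± 0.54, adjusted p = 2.05e-04), and its second probe set gave -3.60 (adjusted p = 1.88e-04). Fdps gave 118, 129 and 80.5 at 10% oxygen, against 475, 403 and 501 in room air (log2 difference -2.10 ± 0.33, adjusted p = 5.81e-04), and -2.09 by its family probe set (adjusted p = 0.0099). Elovl1 gave 99.1, 69.9 and 119 at 10% oxygen, against 245, 500.4 and 197 in room air (log2 difference -1.62 ± 0.40, adjusted p = 0.0148). The groups did not overlap for any of the 3 genes. One of the 3 Nsdhl probe sets, not the brightest, was lower (-1.58, adjusted p = 0.0326), and there the adjusted p was above 0.05 without 10% oxygen F21 array 2 (0.0614), 10% oxygen F21 array 3 (0.211), room air lung F21 array 1 (0.0976), room air lung F21 array 2 (0.108) or room air lung F21 array 3 (0.0665).

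Without array 2, the one with hepatocyte signal, Scd1 changed by -4.42 ± 0.52 (adjusted p = 1.99e-05) and Fdps by -2.23 ± 0.38 (adjusted p = 0.00108), and Elovl1 was at -1.41 ± 0.44 (adjusted p = 0.0616). The calls of Scd1 and of the brighter Fdps probe set stood in all 6 fits without 1 array, and that of Elovl1 was also lost without room air F21 array 2 (adjusted p = 0.103). For the Fdps family probe set, the adjusted p was above 0.05 without 10% oxygen F21 array 3 (0.0718) or room air lung F21 array 2 (0.0515). With the Gapdh 3′:5′ ratio as a covariate 4 probe sets passed, where 171 of all 6931 did, the calls of the Fdps family probe set and of Nsdhl being lost. The alveolar type II markers summed to 23613 to 43186 at 10% oxygen, against 51554 to 65229 in room air, and the 2 club cell markers to 219 to 1431, against 1555 to 3165. Of the 5 type II genes tested all were below room air, with a median of -0.97, and Lyz2 alone passed (-2.83, adjusted p = 2.05e-04). Lyz2 was not confined to lung, with signals of 391, 410 and 281 in F21 livers, so its call is not by itself a result about type II cells. The part of these markers in the differences was not tested. The 10% oxygen and room air lungs also differed in how the strain was written and in the Gapdh ratio, which cannot be told apart from oxygen.

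Born into 10% oxygen, the lungs had more Scd1 at 2 h and 6 h and more Fdps at 2 h than the F21 lungs at 10% oxygen. Scd1 gave 113, 264 and 31.7 at F21, 590.4, 1279.6 and 991 at 2 h and 288, 366 and 1025 at 6 h. Its 2 h signal was 9.24 times that at F21 (log2 change 3.21 ± 0.54, adjusted p = 0.00191) and its 6 h signal 4.85 times (log2 change 2.28 ± 0.54, adjusted p = 0.0121), with no overlap with F21. Fdps gave 118, 129 and 80.5 at F21, 236, 211 and 333 at 2 h and 174, 148 and 215 at 6 h, again with no overlap (log2 change 1.25 ± 0.33, adjusted p = 0.0422 at 2 h, and 0.72, adjusted p = 0.209 at 6 h). By probe sets 3 of 24 passed at 2 h, where 2.65% of all did, and 2 of 24 at 6 h, where 6.31% did. These changes rest on the F21 lungs at 10% oxygen. Set against F21 room air lungs instead, the Scd1 value was -0.50 (adjusted p = 0.65) at 2 h and -1.43 (adjusted p = 0.101) at 6 h, and Fdps at -0.85 (adjusted p = 0.14) and -1.37 (adjusted p = 0.013), that is, below the room air level in place of above the 10% oxygen level. For Fdps at 2 h, the adjusted p was above 0.05 without 10% oxygen 2 h array 1 (0.0746), 10% oxygen 2 h array 2 (0.061), 10% oxygen 2 h array 3 (0.153), 10% oxygen F21 array 2 (0.0558) or 10% oxygen F21 array 3 (0.172). That call was also lost with the Gapdh ratio as a covariate (adjusted p = 0.0567), with array weights (0.174), with only the groups compared (0.0827) and with no filter (0.0549). The Gapdh ratios of the 10% oxygen arrays were 1.21 to 9.40 at F21 and 1.81 to 5.39 at 2 h. The Scd1 calls stood with the covariate. At 6 h both Scd1 probe sets were lost with only the groups compared (0.125 and 0.0691), and 1 of them with array weights (0.0803). For Scd1 at 6 h, the adjusted p was above 0.05 without 10% oxygen 6 h array 3 (0.0621) or 10% oxygen F21 array 3 (0.0945), while in all 6 fits without 1 array the adjusted p was under 0.05 (highest 0.0157) at 2 h.

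Between newborn lungs of the same age, 10% oxygen went with more Idi1 and Fasn and less Elovl5 at 2 h, and with less Elovl1 at 6 h. At 2 h, 4 of 24 probe sets passed, where 16.8% of all did, a share no higher than the background. Idi1 gave 200.5, 122 and 118 at 10% oxygen, against 67.6, 53.4 and 5.1 in room air (log2 difference 2.11 ± 0.56, adjusted p = 0.0125), 1 room air array being under the floor. Fasn gave 899, 1381 and 837 at 10% oxygen, against 484, 391 and 359.5 in room air (log2 difference 1.31 ± 0.30, adjusted p = 0.00438). Every 10% oxygen array was above every room air array for both genes. Elovl5 gave 523, 474 and 399 at 10% oxygen, against 812, 792 and 1033 in room air (log2 difference -0.91 ± 0.30, adjusted p = 0.0373), a call lost in all 6 fits without 1 array (adjusted p = 0.0525 to 0.146). The family probe set of Scd2 gave 429.7, 388 and 405 at 10% oxygen, against 1170.1, 1121 and 701 in room air (log2 difference -1.26 ± 0.25, adjusted p = 0.00153), while the brighter one did not pass (-0.15, adjusted p = 0.802). With the Gapdh ratio as a covariate, Fasn and the Scd2 family probe set were the 2 that passed, where 855 of all 6931 probe sets did.

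For Idi1 at 2 h, the adjusted p was above 0.05 without 10% oxygen 2 h array 1 (0.0544) or room air lung 2 h array 3 (0.119), and for Fasn in all 6 fits without 1 array the adjusted p was under 0.05 (highest 0.0306). At 6 h, Elovl1 gave 87.2, 112 and 141 at 10% oxygen, against 348, 529.8 and 262 in room air (log2 difference -1.71 ± 0.40, adjusted p = 0.0147), with no overlap, and it was the 1 of 24 probe sets to pass, where 5.8% of all did. There the adjusted p was above 0.05 without room air lung 6 h array 1 (0.051) or room air lung 6 h array 2 (0.0765). Array 3 of the 10% oxygen lungs at 6 h was the highest of its group in 8 of 9 fatty acid genes (34.9% of all probe sets). Without it, Scd1 at -2.33 ± 0.56 (adjusted p = 0.0189) and Nsdhl at -1.57 ± 0.38 (adjusted p = 0.0204) passed as well, where 4.4% of all probe sets did. Array 3 was picked by the members' own signals, so leaving it out lowers most of their values by construction and gives no separate support. Srebf1 gave 629, 654 and 530.0 at F21, 882, 1207 and 916 at 2 h and 523, 483 and 1379.9 at 6 h at 10% oxygen and, although the groups did not overlap at F21 and 2 h, did not pass against room air at any of the 3 times (log2 difference 0.67 at F21, 0.56 at 2 h and 0.81 at 6 h, adjusted p = 0.178, 0.203 and 0.105).

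The change of Fdps from F21 to 2 h differed between the oxygen levels. It was 1.25 at 10% oxygen, against -1.39 in room air, a difference of 2.65 ± 0.47 (limma interaction, adjusted p = 0.00769, 1 of 24 probe sets where 0.476% of all passed). It passed in all 12 fits without 1 array (highest adjusted p = 0.0407) and with the Gapdh ratio as a covariate. The family probe set of Fdps, tested too, did not pass. The F21 arrays of each oxygen level enter the difference of 2.65, and at F21 the brighter probe set was at -2.10 (10% oxygen minus room air). Between the oxygen levels at 2 h, Fdps did not pass. Set against F21 room air lungs, its 2 h value was -0.85 at 10% oxygen and -1.39 in room air. In room air only, the strain was written differently at F21 and after birth, which cannot be told apart from birth. At 6 h the difference between the changes was 1.39 (adjusted p = 0.377). None of the 24 member probe sets passed there (6 had an unadjusted limma p under 0.05), where 0.0144% of all did.

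**Figure D4:**
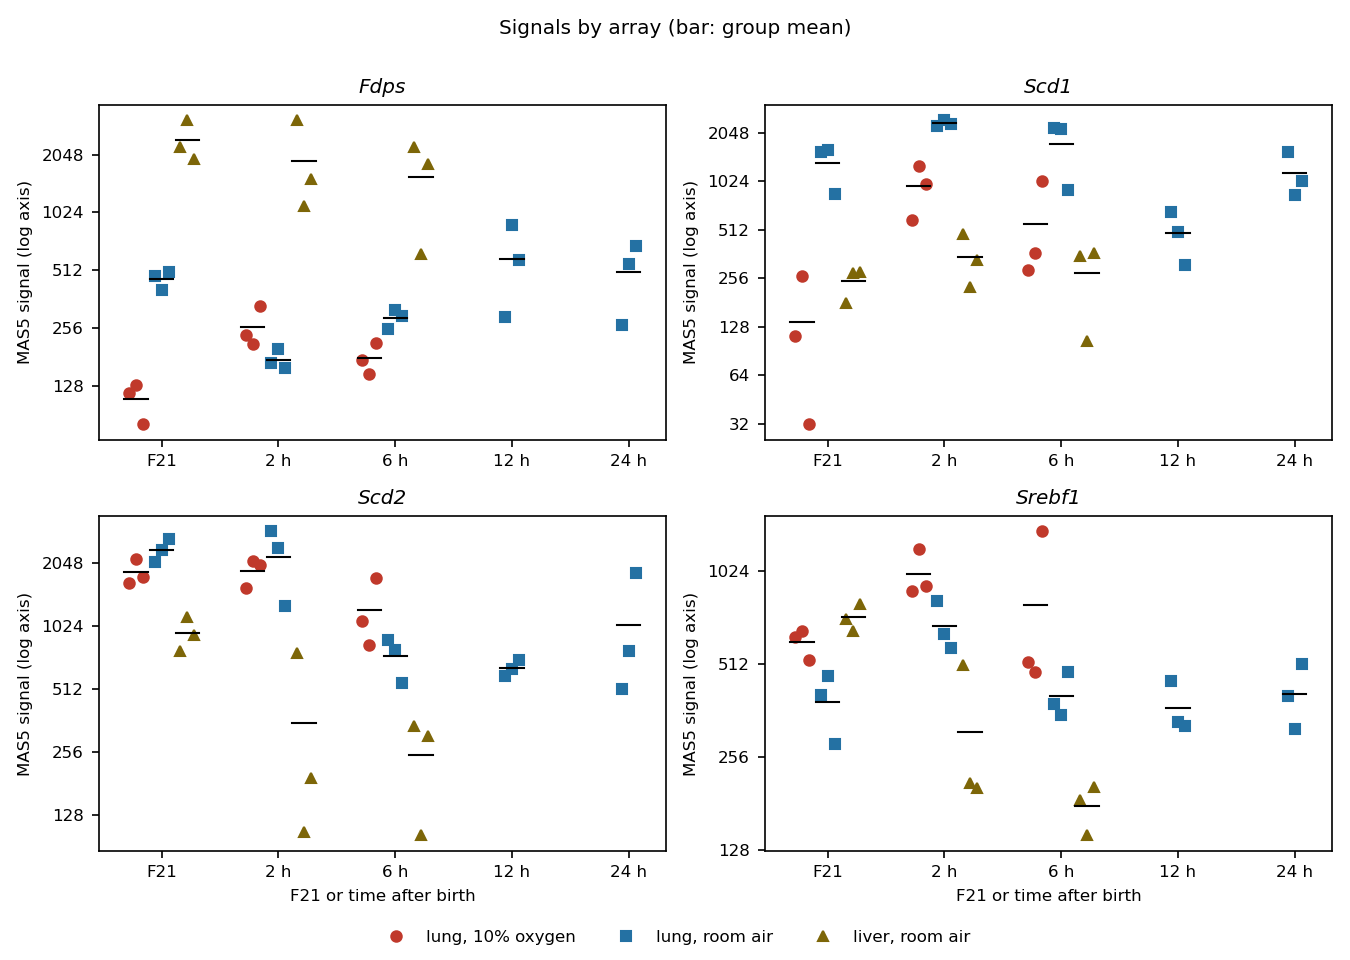
MAS5 signals (vertical axes, log scale) of Fdps, Scd1, Scd2 and Srebf1 by time in lungs at 10% oxygen, lungs in room air and livers, 1 point per array and a bar at each group mean. At F21 Scd1 averaged 136 ± 118 at 10% oxygen and 1335 ± 417 in room air lungs (SD, n = 3 each), and Srebf1 in liver averaged 728 ± 74.6 at F21, 309 ± 175 at 2 h and 178 ± 31.9 at 6 h, while in room air lungs it averaged 387 ± 95.9, 682 ± 128 and 406 ± 70.1 (SD, n = 3 each).

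Srebf1 was the member whose change after birth differed between the organs. From F21 to 2 h it changed by 0.83 in room air lung and by -1.37 in liver, a difference of 2.20 ± 0.44 (limma interaction over both organs, adjusted p = 0.0107). From F21 to 6 h it changed by 0.09 in lung and by -2.04 in liver, a difference of 2.13 ± 0.44 (adjusted p = 0.0242). It was the 1 of 31 probe sets to pass at each time, where 0.929% and 0.196% of all did. The difference at 2 h passed in all 12 fits without 1 array (highest adjusted p = 0.0418), and that at 6 h in 5 of 12 (highest adjusted p = 0.0888). Elovl5 was above F21 in both organs, and its changes differed by -0.91 at 2 h and -1.01 at 6 h (adjusted p = 0.364 and 0.463). Idi1 at 6 h changed by -0.82 in lung and -2.87 in liver (difference 2.05, 95% interval 0.42 to 3.69, adjusted p = 0.408). In room air lung, but not in liver, the strain was written differently at F21 and after birth, which cannot be told apart from birth.

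Neighbouring pathways were read from 5 further lists, which hold 45 genes on the array (other steps of cholesterol synthesis, sterol sensing, uptake and efflux, acyl-CoA, NADPH and elongation, glycerolipid and phosphatidylcholine synthesis, bile acid and oxysterol enzymes). Of the 42 tested between the organs at F21, 2 were higher and 16 lower in lung, where 28% of all probe sets passed. The phosphatidylethanolamine methyltransferase Pemt (-5.62, adjusted p = 5.07e-10), the bile acid enzyme Cyp8b1 (-4.58, adjusted p = 2.07e-09) and Apoe (-3.76, adjusted p = 1.93e-11) were lower in lung, and the lysosomal sterol carrier Npc2 was higher (2.98, adjusted p = 7.99e-12).

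In liver, 3 of 38 passed at 2 h and 1 of 38 at 6 h, where 0.913% and 1.84% of all probe sets did, and all were in phosphatidylcholine and glycerolipid synthesis. Choline kinase, Chka, gave 202, 283 and 226 at F21, 104, 71.9 and 68.2 at 2 h and 141, 110.0 and 93.8 at 6 h, and fell at 2 h (log2 change -1.55 ± 0.26, adjusted p = 0.0126). Pemt gave 2234, 1935 and 1759 at F21, 1287, 926 and 861 at 2 h and 927, 1083 and 1083 at 6 h (log2 change -0.96 and -0.94, adjusted p = 0.0129 and 0.0113). Neither gene's newborn arrays overlapped F21. The phosphatidate phosphatase Lpin2 rose at 2 h (log2 change 1.09 ± 0.18, adjusted p = 0.0129). Chka also differed between the organs in its change at 2 h (2.12, adjusted p = 0.00343) and 6 h (1.89, adjusted p = 0.0229), the change in lung being above that in liver. In room air lung 0, 1, 0 and 0 of 38 passed at 2 h, 6 h, 12 h and 24 h, the 1 being Lpin2 (1.45, adjusted p = 0.0347). At an unadjusted p under 0.05 these times had 5, 6, 7 and 6 of 45 probe sets.

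At 10% oxygen, none of the 38 passed against the F21 lungs at 10% oxygen (limma, with an unadjusted p under 0.05 for 4 of their 45 probe sets at 2 h and 7 at 6 h). Against room air, 2 of 38 passed at F21, 5 at 2 h and 2 at 6 h, where 7.13%, 16.8% and 5.8% of all probe sets did, so that these counts were no higher than the background. Cytochrome b5, Cyb5a, an electron carrier of the desaturases, was lower at all 3 times (-0.96, -1.45 and -0.89, adjusted p = 0.0272, 7.99e-04 and 0.0466). At 2 h Npc2 was higher (1.87, adjusted p = 4.08e-05) and the sterol exporter Abca1 and the acyl-CoA synthetase Acsl4 were lower (-1.73 and -1.37, adjusted p = 0.0199 and 0.0238). The other probe set of Abca1 did not pass at 2 h and was lower at 6 h (-2.62, adjusted p = 0.0229). Npc2 also differed in its change at 2 h (1.60, adjusted p = 0.0401).

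The values of the members named above in the remaining groups were as follows. In newborn room air lungs, Fdft1 gave 146, 120.0 and 61.0 at 2 h, 39.9, 13.7 and 71.3 at 6 h, 66.3, 132 and 141 at 12 h and 73.8, 147 and 107 at 24 h. Sqle gave 108, 61.1 and 118 at 2 h, 51.2, 60.9 and 64.6 at 6 h, 67.9, 295 and 188 at 12 h and 64.1, 144 and 184 at 24 h, and Lss gave 41.9, 39.8 and 23.6 at 2 h, 62.5, 65.1 and 39.2 at 6 h, 13.8, 70.3 and 63.7 at 12 h and 25.2, 51.4 and 46.7 at 24 h. Array 1 was the lowest of the 12 h and of the 24 h arrays in each of these 3 genes, and the 6 h arrays of Sqle were all below F21. Cyp51 gave 27.9, 31.5 and 31.8 at 2 h, 25.7, 44.9 and 61.7 at 6 h, 15.8, 80.4 and 64.8 at 12 h and 37.5, 55.8 and 23.1 at 24 h. Msmo1 gave 35.9, 30.0 and 12.5 at 2 h, 33.8, 22.0 and 23.5 at 6 h, 3.1, 52.1 and 49.4 at 12 h and 33.3, 44.1 and 35.9 at 24 h, and Ebp gave 9.8, 45.2 and 11.1 at 2 h, 20.8, 44.2 and 89.4 at 6 h, 40.3, 38.3 and 49.1 at 12 h and 17.4, 73.3 and 83.0 at 24 h. Each of these 3 overlapped its F21 signals at every time. Nsdhl gave 175, 112 and 109 at F21, 126, 92.8 and 99.5 at 2 h, 92.2, 88.9 and 85.4 at 6 h, 74.8, 111 and 80.8 at 12 h and 65.9, 144 and 116 at 24 h, with the 6 h arrays below F21. Dhcr7 gave 6.6, 10.3 and 6.1 at 2 h, 7.3, 33.6 and 5.9 at 6 h, 5.9, 29.2 and 12.0 at 12 h and 2.9, 22.1 and 4.4 at 24 h, and Elovl6 gave 29.7, 23.7 and 20.3 at 2 h, 5.5, 23.2 and 9.9 at 6 h, 7.4, 24.3 and 17.1 at 12 h and 13.5, 5.0 and 6.8 at 24 h. Both overlapped F21 throughout and had signals under the floor of 10 in some arrays. Me1 gave 111, 137 and 105 at 2 h, 87.4, 101 and 88.8 at 6 h, 54.0, 79.4 and 78.8 at 12 h and 83.4, 119 and 49.9 at 24 h. Elovl1 gave 167, 163 and 251 at 2 h, 348, 529.8 and 262 at 6 h, 190.4, 209 and 89.4 at 12 h and 199, 284 and 149 at 24 h, and Fads1 gave 187, 159 and 165 at 2 h, 130.0, 117 and 132 at 6 h, 103, 191 and 159 at 12 h and 122, 161 and 134 at 24 h. Me1 and Elovl1 overlapped F21 at every time, and only the 6 h arrays of Fads1 were all below it.

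In lungs at 10% oxygen, Hmgcs1 gave 145, 94.9 and 132 at F21, 174, 90.5 and 111 at 2 h and 80.1, 95.7 and 57.5 at 6 h, and Idi1 gave 106, 141 and 71.9 at F21 and 75.2, 102 and 127 at 6 h. Fdft1 gave 116, 163 and 153 at F21, 223, 188 and 85.4 at 2 h and 82.9, 65.2 and 99.8 at 6 h. Sqle gave 118, 93.2 and 122 at F21, 103, 182 and 95.8 at 2 h and 135, 103 and 141 at 6 h. Of these, only the 6 h arrays of Fdft1 were clear of F21, being lower. Lss gave 41.0, 12.2 and 31.7 at F21, 68.1, 30.8 and 63.6 at 2 h and 92.7, 10.6 and 48.4 at 6 h. Cyp51 gave 50.6, 31.0 and 21.6 at F21, 41.7, 58.0 and 27.0 at 2 h and 87.8, 63.7 and 67.2 at 6 h, and Msmo1 gave 35.4, 32.6 and 36.7 at F21, 74.1, 37.2 and 60.6 at 2 h and 69.7, 19.0 and 28.0 at 6 h. The 6 h arrays of Cyp51 and the 2 h arrays of Msmo1 were all above F21. Ebp gave 66.0, 31.2 and 62.0 at F21, 25.9, 34.4 and 44.6 at 2 h and 49.3, 34.8 and 47.9 at 6 h. Nsdhl gave 165, 103 and 83.0 at F21, 152, 144 and 148 at 2 h and 22.3, 40 and 162 at 6 h, and Dhcr7 gave 60.3, 41.8 and 12.8 at F21, 9.4, 6.7 and 11.5 at 2 h and 4.7, 8.3 and 46.8 at 6 h. At 6 h, arrays 1 and 2 of Nsdhl were far below array 3, and the 2 h arrays of Dhcr7 were all below F21. Fasn gave 638, 609 and 379 at F21, 899, 1381 and 837 at 2 h and 315, 353 and 705 at 6 h, with all 2 h arrays above F21. Scd2 gave 1641, 2136 and 1760.1 at F21, 1554, 2091 and 1993 at 2 h and 1083, 832 and 1739 at 6 h. Me1 gave 20.9, 95 and 74.6 at F21, 86.3, 93.2 and 84.4 at 2 h and 32.2, 50.3 and 109 at 6 h, and Fads1 gave 179.9, 159 and 150.1 at F21, 184, 189 and 195 at 2 h and 151, 138 and 190.2 at 6 h. Scd2 and Me1 overlapped F21 at both times, and the 2 h arrays of Fads1 were above it. Elovl6 gave 37.7, 45.5 and 9.4 at F21, 97.9, 51.7 and 45.1 at 2 h and 89.9, 8.8 and 35.4 at 6 h. Elovl5 gave 382, 349 and 203 at F21, 523, 474 and 399 at 2 h and 661, 486 and 529.9 at 6 h, with every newborn array above F21, and Elovl1 at 2 h gave 178, 164 and 75.4.

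In liver, Nsdhl gave 187, 303 and 153 at F21, 295, 147 and 188 at 2 h and 187, 141 and 187 at 6 h. Me1 gave 38.9, 11.8 and 25.3 at F21, 27.6, 46.1 and 9.7 at 2 h and 50.1, 5.8 and 9.0 at 6 h, and Elovl1 gave 106, 75.8 and 70.9 at F21, 86.9, 113 and 119.5 at 2 h and 35.5, 80.4 and 104 at 6 h. None of the 3 passed in liver after birth and their groups overlapped.

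8 members passed in no comparison, which leaves 20 genes called at least once, with 52 calls in 14 of 16 comparisons. Insig1, the membrane protein that retains the SREBP complex, Hsd17b7 and Sc5d, both enzymes of late cholesterol steps, were too dim to be tested in any fit. Insig1 lay between 1.7 and 44.6 over the 33 arrays and was under 10 on 24 of them, with group means between 3.67 in 6 h livers and 29.9 in 6 h lungs at 10% oxygen. In lungs at 10% oxygen Insig1 gave 11.8, 8.5 and 7.7 at F21, 3.1, 1.7 and 9.8 at 2 h and 44.6, 5.2 and 39.8 at 6 h. In room air lungs it gave 6.9, 11.5 and 8.1 at F21, 3.7, 5.4 and 35.0 at 2 h, 4.6, 2.6 and 15.0 at 6 h, 8.5, 23.9 and 13.8 at 12 h and 4.8, 2.7 and 8.8 at 24 h, and in livers 14.5, 9.6 and 7.2 at F21, 7.4, 2.3 and 5.7 at 2 h and 4.1, 4.8 and 2.1 at 6 h. All its liver arrays were under 10 at 6 h. Mvd had group means between 14.4 in 2 h room air lungs and 149 in F21 livers. Acly, which makes cytosolic acetyl-CoA, had group means between 247 in 6 h lungs at 10% oxygen and 558 in F21 livers. Gpam, the first acyltransferase of glycerolipid synthesis, lay between 321 in 6 h room air lungs and 675 in F21 livers, and Thrsp, a lipogenic nuclear protein, between 12.1 in F21 lungs at 10% oxygen and 62.9 in 6 h livers. Mvk lay between 102 in 2 h livers and 226 in F21 room air lungs by its brighter probe set.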

How the data were processed

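RNA from 33 whole lungs and livers was hybridised to Affymetrix MGU74Av2 arrays, 1 sample per array. The deposited values are intensity values: MAS5 signals that the authors scaled to a target of 100, with no replicates pooled. A floor of 10 was applied to the signals before the log2 step, and probe sets in the top 40% of signals on at least 3 arrays of a fit were kept. This left 6931 probe sets in 24 lung arrays, 5693 in 9 liver arrays and 7640 in all 33. Each of these 3 fits used limma 3.58.1 (R 4.3.3; lmFit, eBayes with a trend), with 1 mean per group and no covariate, and 16 contrasts were taken. Adjusted p-values are those of Benjamini and Hochberg over all probe sets of a fit, with a threshold of 0.05. The fits were tested on simulated data.

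The number of arrays, 3 in each group, limits the precision. Groups came from the labels, and gene names from the platform annotation. Members called in any comparison, and Srebf1 and Insig1, were named with every array's value, the others by their range, and of the genes in the other lists up to 4 per comparison with the smallest adjusted p. The members and the lists were chosen with earlier results of these data known. Alternatives were quantile normalization, a lower floor (1) or a pseudocount (16) in its place, testing without the filter, the replicate block, the Gapdh 3′:5′ ratio as a covariate, array weights, a fit of only the groups compared, the methods' t-test, the room air F21 baseline for the lungs at 10% oxygen, and leaving out each array in turn. The Gapdh covariate and the array weights were run in the lung fit only, not for liver or between the organs.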

Additional observations from a re-analysis of the deposited data

Results flagged for a closer look

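The difference between oxygen levels in the change of Fdps from F21 to 2 h in lung was 2.65 on the log2 scale (10% oxygen minus room air, limma interaction, adjusted p = 0.00769), a test of the difference between the groups itself. This was by the brighter Fdps probe set, and the family probe set did not pass. At F21 the brighter probe set was at -2.10 (10% oxygen minus room air), which enters the 2.65, and at 2 h it did not pass between the oxygen levels. Srebf1 differed between the organs in its change from F21 to 2 h, by 2.20 (room air lung minus liver, limma interaction, adjusted p = 0.0107), and in its change from F21 to 6 h, by 2.13 (adjusted p = 0.0242). Both organ differences use the same F21 arrays. With 3 arrays in each group, no single array was tested as an outlier.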

How the results depend on the processing

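Counts are of member probe sets past the threshold, and alternatives that moved a count by over 1.5 times are given, with the reported count in parentheses. Square brackets hold the calls over all probe sets, first in the reported fit and then in the alternatives in order. They are out of 6931 in lung, 5693 in liver and 7640 over both, except where another total is given. These counts moved too, so a moved member count is not by itself a result about the members. In room air lung at 2 h (2), array weights gave 6, the groups compared alone 4 and no filter 1 [294, then 1123, 476 of 5196 and 216 of 12422]. At 6 h (1), array weights gave 4, the groups alone 2 and the methods' t-test (unadjusted p under 0.01) 3 [71, then 318, 183 of 5191 and 302]. At 12 h (1) these gave 4, 4 and 2 [93, then 305, 131 of 5180 and 265]. At 24 h (0), quantile normalization, the Gapdh covariate and array weights each gave 1 [40, then 32, 64 and 256]. Against F21 at 10% oxygen, the methods' t-test gave 1 at 2 h (3) and the room air baseline gave 1 [184, then 189 and 376]. At 6 h (2), array weights gave 1, the groups alone 0, the t-test 0 and the room air baseline 4 [437, then 101, 83 of 5156, 217 and 520]. Between oxygen levels, the t-test gave 2 at F21 (6) [494, then 361] and the Gapdh covariate 2 at 2 h (4) [1167, then 855]. At 6 h (1) a pseudocount of 16, quantile normalization, the replicate block and the t-test each gave 2 and array weights 3 [402, then 415, 396, 382, 338 and 258]. For the interaction at 2 h (1), array weights gave 2 [33, then 49]. In liver at 2 h (2), no filter gave 0 and the t-test 1 [52, then 13 of 12422 and 177]. At 6 h (5), no filter gave 0 and the groups alone 8 [105, then 35 of 12422 and 115 of 5166]. For the organ interactions, quantile normalization gave 2 at 2 h (1) [71, then 74] and 0 at 6 h (1) [15, then 12]. After Benjamini-Hochberg adjustment the methods' t-test gave 14 between the organs (22) [2137, then 1354]. It gave 0 in 10 other comparisons with calls, where at most 99 of all probe sets passed, and it was not run for the interactions. The room air baseline reversed Scd1 at 2 h (-0.50 and, by the second probe set, -0.33) and 6 h (-1.43 and -1.0) and Fdps at 2 h (-0.85). The cause of these differences was not tested, except that no filter tests more probe sets and that the groups compared alone hold fewer arrays.

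Leaving out each array in turn gave ranges of 0 to 1, 0 to 1, 1 to 1 and 0 to 1 in room air lung at 2, 6, 12 and 24 h, 2 to 4 and 1 to 3 at 10% oxygen at 2 and 6 h, 3 to 6, 2 to 3 and 0 to 4 between oxygen levels at F21, 2 and 6 h, 1 to 1 and 0 to 0 for the oxygen interactions, 0 to 9 and 3 to 4 in liver at 2 and 6 h, 16 to 19 between the organs, and 1 to 3 and 0 to 1 for the organ interactions. Counts over all probe sets moved too, as in liver at 2 h, with 129 of 5555 without 2 h array 1 and 52 of 5693 with it. Deviations of same-numbered arrays correlated at r between -0.15 and 0.13, so no shared deviation was seen. The labels do not say whether the numbers pair the samples. The replicate block gave 3 in liver at 2 h in place of 2, with 71 of all probe sets in place of 52. Over all alternatives to the 52 calls, 602 values kept direction and call, 175 kept direction and lost the call, and 5 reversed.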
